A study of Mus musculus with 11 samples.

Results

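MamBo89 is a mouse mammary carcinoma cell line in which 3 cultures with different trastuzumab schedules were sequenced, and these 3 libraries of the 11 in the series are described here. The line came from a mammary tumor that arose in an FVBhuHER2 mouse, which carries human HER2 as a transgene, and it keeps a high HER2 level. The first culture was the untreated parental line. The second was kept on 30 µg/ml trastuzumab for 60 days, and the third had 30 days on the same dose followed by 30 days without it. The members were chosen by the line and schedule in the sample names, so no measured value selected them. An untreated clone of the same line, AG3, was left out because it differs from the parental line by cloning and not by schedule. All cultures grew in the same serum-rich medium. Neither the passage of each culture nor the growth of the untreated culture alongside the treated ones is given in the labels.

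Trastuzumab is a humanized antibody against the extracellular part of human HER2, a receptor tyrosine kinase that pairs with EGFR or HER3 and signals through the RAS-ERK and PI3K-AKT pathways. HER2 itself has no known ligand. Its partners bind growth factors of the EGF and neuregulin families, among them amphiregulin. Signals from this receptor family feed amino acid uptake and synthesis through mTORC1 and the transcription factor ATF4, which also answers to amino acid shortage and to stress in the endoplasmic reticulum. The count table holds mouse genes only, so the human transgene itself was not measured. Whether some of its reads were counted under the mouse gene Erbb2 was not tested.

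The 3 MamBo89 libraries held 17040454 to 22295814 estimated gene counts. Between 9761 and 9842 genes reached 5 CPM (a gene's counts scaled to the size of its library) in each, the 50 most abundant genes took 17.5% to 19.4% of the counts, and ribosomal protein genes 7.41% to 7.49%. All levels below are CPM after scaling by the trimmed mean of M values (TMM), and all ratios are on the log2 scale with a prior count of 0.5. Each schedule had 1 library, so a ratio between schedules carries no replicate error, and the intervals quoted with it are 95% exact counting intervals that cover counting error only. In bulk RNA, fewer cells of a kind and less RNA per cell cannot be told apart. What separates 1 culture from the other cultures cannot be told apart from the drug schedule it had. No culture was harvested at 30 days on drug, so a shorter exposure and the withdrawal cannot be told apart. Of 12 mammary epithelial markers, 10 reached 5 CPM, among them Epcam, an epithelial adhesion molecule, at 726, 714 and 586 CPM in the untreated, 60-day and withdrawn cultures. Of 16 leukocyte markers 2 reached 5 CPM, Cd14 at 259 CPM and Cd68 at 7.77 CPM untreated, while Ptprc, Cd3e and Adgre1 were at 0 in all 3 libraries. Of 12 fibroblast markers 3 did, with 37.6 CPM of Pdgfra, 36.7 CPM of Postn and 22.2 CPM of Col1a1 untreated, while Dcn, Lum and Thy1 were at 0.

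The mouse genes of the HER2 family receptors stayed within 1.5-fold between the schedules. Erbb2, the mouse gene for HER2, had 155 CPM untreated, 166 CPM after 60 days on drug and 134 CPM after withdrawal. Erbb3 had 134, 138 and 114 CPM in the same order, and Egfr 21.9, 20.2 and 17.8 CPM. The ratios of these 3 receptors between any 2 of the 3 libraries ranged within 1.5-fold. The adhesion receptor Cd44 had 230.2, 232 and 243 CPM and the surface protein Ly6a 301, 302 and 272 CPM, so both stayed level. Cd24a, the gene of the surface marker CD24, had 97.3, 92.7 and 66.8 CPM, with a log2 ratio of -0.54 after withdrawal (counting interval -0.65 to -0.44). E-cadherin (Cdh1) had 1032, 829.6 and 1085 CPM, lowest on drug, with a log2 difference of -0.35 ± 0.11 (SE) between drug present and absent (adjusted p = 0.105, edgeR quasi-likelihood test). Pdgfrb, the PDGF receptor the study followed in the HER2-negative cells, had at most 0.184 CPM in MamBo89.

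The 60-day culture stood apart from both drug-free cultures, and the withdrawn culture lay close to the untreated one. Of 10016 genes at 5 CPM or more in either library, 188 (1.88%) differed at least 2-fold between the 60-day and the untreated culture, 53 higher (0.529%) and 135 lower (1.35%) on drug. Between the withdrawn and the untreated culture 55 of 9941 genes (0.553%) did so, 17 higher (0.171%) and 38 lower (0.382%). Between the 60-day and the withdrawn culture 264 of 9998 genes (2.64%) did so, 127 higher (1.27%) and 137 lower (1.37%) on drug, a balance that turned to 144 and 128 with scaling by total counts. The same schedules in MamBo38, a line without HER2 that came from a tumor grown from injected MamBo43 cells, gave 13, 10 and 10 such genes in the same order. MamBo43, in which the HER2 level is labile, gave 3829, 3119 and 571, so its untreated library lay far from both exposed ones.

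**Figure D1:**
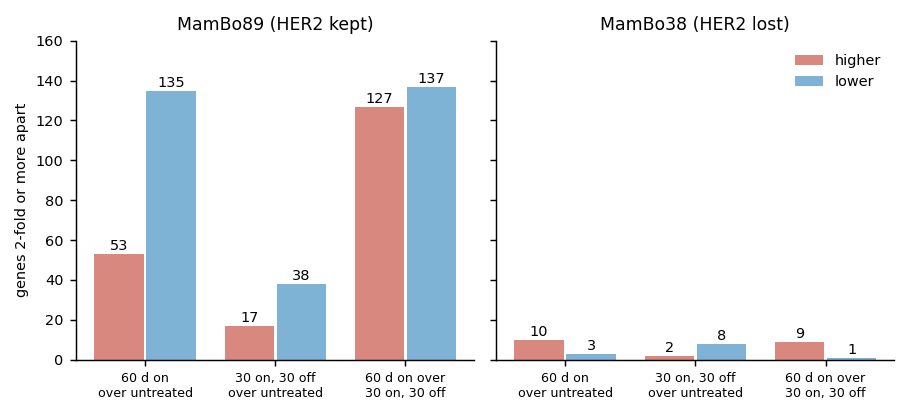
Bars give the number of genes at least 2-fold apart in each pair of schedules, higher and lower in the first library named, in MamBo89 and in MamBo38 (1 library each, genes at 5 CPM or more in either). In MamBo89 the 60-day culture is apart from both others (188 and 264 genes) and the withdrawn culture is nearest to the untreated one (55 genes), while MamBo38 shows 10 to 13 genes in every pair.

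The 188 genes were then followed into the withdrawn culture, which shares the untreated library as its reference. In 131 of them the withdrawn culture was within 1.5-fold of the untreated level, 39 of the genes that were higher on drug and 92 of those that were lower. In 21 genes the withdrawn level lay between 1.5-fold and 2-fold on the same side as the drug. In 20 genes it was 2-fold or more away in the same direction, 3 higher and 17 lower. In the remaining 16 it lay more than 1.5-fold from the untreated level in the opposite direction. Most of the genes that were apart on drug were thus near the untreated level in the withdrawn culture. Over all 10071 genes, 1.03% were more than 1.5-fold higher and 1.84% more than 1.5-fold lower in it. At 2-fold or more, 0.553% of 9941 genes were apart. The 188 genes were therefore away from the untreated level more often than genes at large. Whether they had moved in that culture before the drug was taken away was not measured.

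A gene was counted as moving only with the drug when the 60-day culture differed at least 2-fold from both other cultures and these differed by less than 1.5-fold. This rule took 99 of 10071 genes (0.983%), 28 higher (0.278%) and 71 lower (0.705%). It took 2 of 9913 genes (0.0202%) in MamBo38, 1 higher and 1 lower (0.0101% each). In MamBo43 it took 90 of 10674 genes (0.843%), 22 higher (0.206%) and 68 lower (0.637%), a share near that in MamBo89. The rule is a description by size with an arbitrary edge. Glce, an epimerase of heparan sulfate synthesis, was just inside it with 58.6, 29.3 and 72.1 CPM in the untreated, 60-day and withdrawn cultures. Asns, with 300.3, 139.8 and 279 CPM, and Egr2, with 50.1, 111 and 56.0 CPM, were just outside. The median gene of the 71 had 31.2 CPM in its highest library and that of the 28 had 13.4 CPM.

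The test that bears on these genes set the 60-day library against the 2 drug-free libraries, whose difference gave the spread (edgeR's quasi-likelihood test, 1 residual degree of freedom, Benjamini-Hochberg adjustment). It called 234 of 12307 genes (1.9%) at an adjusted p under 0.1 and at least 2-fold, 89 higher (0.723%) and 145 lower (1.18%). The 234 include all 99 genes of the rule, which reads the same contrast and so adds nothing to the test. Another 65 of the 234 were under 5 CPM in all 3 libraries. With DESeq2 the count was 131, 35 higher and 96 lower, all among the 234. Without the untreated library, and with the spread taken from MamBo38, the balance turned to 260 higher and 193 lower.

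Fibronectin, tenascin C and Loxl4, all of the extracellular matrix, were among the genes that fell on drug, while the matrix genes Mgp and Prelp rose. Fibronectin (Fn1, chr1:71585520-71653200 on the minus strand, GRCm38), the matrix glycoprotein that integrins bind, had 586 CPM untreated, 112 CPM on drug and 858 CPM after withdrawal. The drug culture was the lowest of the 3 and the withdrawn one the highest. Its log2 difference between drug present and absent was -2.69 ± 0.23 (adjusted p = 0.00429, edgeR). Tenascin C (Tnc), another matrix glycoprotein, had 357, 119 and 277 CPM in the same order and differed by -1.41 ± 0.15 (adjusted p = 0.0055, edgeR). Loxl4, a lysyl oxidase that cross-links collagen, had 11.5, 2.90 and 13.1 CPM.

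B4galnt2, a glycosyltransferase that makes the Sda blood group sugar, had the largest fall against both cultures among genes above 20 CPM in the rule. Its level was 43.2 CPM untreated, 4.70 CPM on drug and 33.9 CPM after withdrawal, a log2 ratio of -3.19 (counting interval -3.53 to -2.88) on drug. Dhrs9, a retinol dehydrogenase, had 9.01, 0.930 and 10.5 CPM, the largest fall by the same measure among the 71 genes of the rule. Cyb5r1, a cytochrome b5 reductase, had 235, 44.8 and 285 CPM and the smallest p of the falling genes, with a log2 difference of -2.53 ± 0.15 (adjusted p = 0.00122, edgeR). Fam129a, a stress-responsive regulator of translation, had 301 CPM in both drug-free cultures and 100.2 CPM on drug. The milk casein gene Csn1s2a had 82.2 CPM untreated and 55.1 CPM after withdrawal, and on drug its log2 ratio to the untreated culture was -2.45. In all 5 genes the drug culture was far below both others, and only in Csn1s2a and B4galnt2 of the 5 was the withdrawn level below the untreated one by more than its counting interval.

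Chil1 was among the 28 genes higher only on drug. Chil1, a secreted chitinase-like protein of inflamed and secretory epithelium, had 151 CPM untreated, 557 CPM on drug and 149 CPM after withdrawal, the smallest p of the whole test (log2 difference 1.90 ± 0.09, adjusted p = 0.000419, edgeR). Hes1, a transcriptional repressor and Notch target, had 74.3, 193 and 78.7 CPM (1.34 ± 0.10, adjusted p = 0.00202, edgeR). Axl, a receptor tyrosine kinase of the TAM family, had 8.73, 35.3 and 10.03 CPM (1.92 ± 0.16, adjusted p = 0.00429, edgeR). Both drug-free cultures of each of these genes were nearly alike.

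Further genes higher only on drug included secreted and receptor genes of several kinds. The calcification inhibitor Mgp had 296, 642 and 251 CPM. The matrix proteoglycan Prelp had 10.1, 35.0 and 12.1 CPM, the Wnt receptor Fzd9 20.7, 54.2 and 17.1 CPM and the zinc finger factor Zfp521 13.7, 36.7 and 12.9 CPM. Each was called in the drug-present test at an adjusted p between 0.00429 and 0.0044 (edgeR). Gm21983 had the largest rise, from 0.689 to 5.14 CPM, but 95.4% of its 75-base windows occur in transcripts of other genes, mostly Rab4b, so its reads cannot be placed with confidence. Of the 119 genes in the 3 rules of size, 8 share at least 50% of such windows with other genes.

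**Figure D2:**
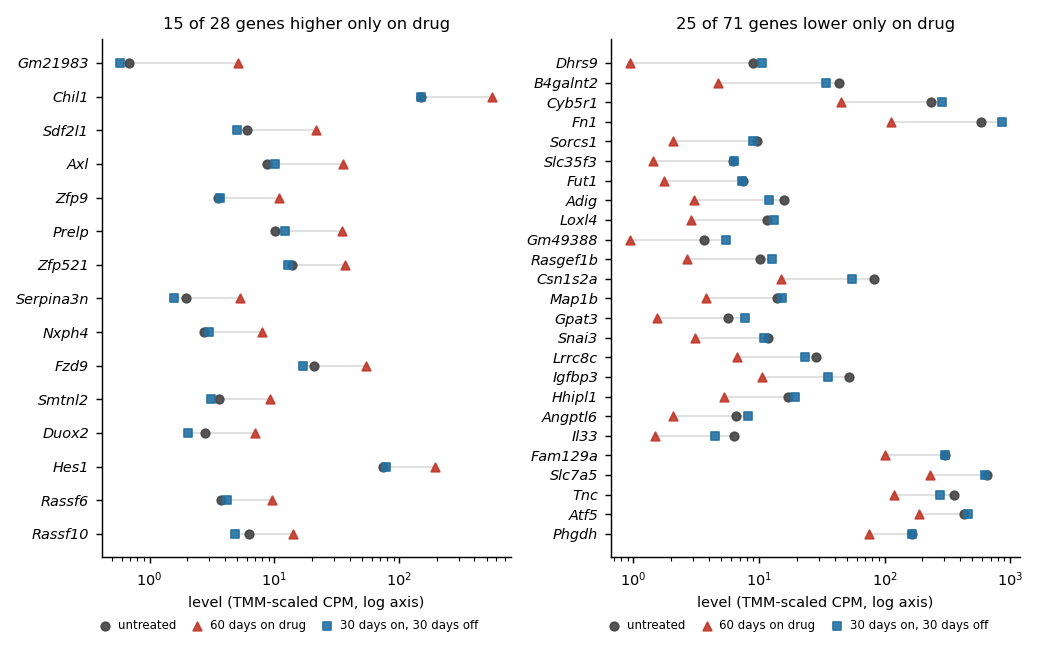
Points give the level (TMM-scaled CPM, log axis) of genes that were apart only in the 60-day culture, 1 library per schedule. On the left are 15 of the 28 genes higher on drug (triangles right of both others) and on the right 25 of the 71 lower ones (triangles left of both others), while the untreated and withdrawn points lie within 1.5-fold of each other.

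Part of the ATF4 and amino acid response list fell on drug. These genes take up amino acids, make serine, glycine and asparagine, charge transfer RNAs and limit the stress response. Of 24 list members tested, 7 fell and 0 rose in the drug-present test, where 1.18% of all genes fell. Without the 2-fold limit 13 fell and 1, the factor Cebpb, rose, where 6.48% of all genes fell and 4.4% rose at an adjusted p under 0.1. Over 21 members at 5 CPM or more the median log2 ratio was -0.59 on drug and -0.15 after withdrawal, beside -0.02 and -0.01 over all 10071 genes.

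Slc7a5, the light chain of the LAT1 transporter for leucine and other large amino acids, had 661 CPM untreated, 231 CPM on drug and 628 CPM after withdrawal (log2 difference -1.48 ± 0.10, adjusted p = 0.00202, edgeR). Phgdh, the first enzyme of serine synthesis, had 165, 74.6 and 166 CPM. Atf5, a transcription factor related to ATF4, had 432, 188 and 460.1 CPM. In all of these the drug culture lay under the others by more than 2-fold, and the drug-free cultures differed by at most 0.09 on the log2 scale.

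Asns, asparagine synthetase, was called too (log2 difference -1.05 ± 0.10, adjusted p = 0.00429, edgeR), and Slc6a9, a glycine transporter, had 93.0, 39.0 and 82.9 CPM. Nupr1, a small stress-induced chromatin protein, had 38.7, 13.1 and 26.4 CPM, so its withdrawn level was between the others. The mRNA of ATF4 itself was level, with 977, 975 and 879 CPM. Stress genes of the same list that are known for cell death also stayed close, Ddit3 with 34.3, 38.9 and 37.6 CPM and Trib3 with 331, 263 and 353 CPM. Wars, the tryptophanyl transfer RNA synthetase, and Got1, a cytosolic aspartate aminotransferase, are outside the list and were picked after their values were seen, Wars with 140.4, 65.3 and 153 CPM and Got1 with 44.3 and 17.1 CPM untreated and on drug and a log2 ratio of 0.02 after withdrawal.

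The promoters of 2 of these genes that fell are shown because they hold the core of the amino acid response element that ATF4 is known to bind. The letters searched were TGATGNAA on both strands, in 250 bases before and 50 bases from the start that RefSeq gives (GRCm38.p6, read in the direction of the gene). The match is in capitals.
Asns, chr6:7693160-7693459, minus strand: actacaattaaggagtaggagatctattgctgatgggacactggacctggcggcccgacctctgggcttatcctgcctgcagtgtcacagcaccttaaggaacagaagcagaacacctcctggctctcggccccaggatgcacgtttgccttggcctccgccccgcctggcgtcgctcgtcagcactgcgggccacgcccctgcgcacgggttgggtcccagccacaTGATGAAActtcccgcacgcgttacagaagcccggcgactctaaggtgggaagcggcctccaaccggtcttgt
Nupr1, chr7:126625421-126625720, minus strand: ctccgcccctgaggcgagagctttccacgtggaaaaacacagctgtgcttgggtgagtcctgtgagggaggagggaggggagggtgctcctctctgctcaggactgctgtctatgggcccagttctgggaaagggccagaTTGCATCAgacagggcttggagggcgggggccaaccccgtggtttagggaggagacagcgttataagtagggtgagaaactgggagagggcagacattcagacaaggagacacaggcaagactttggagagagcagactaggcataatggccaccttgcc
Of 18 list members at 5 CPM or more that had a promoter in the RefSeq table, 6 held a match (Asns, Chac1, Nupr1, Slc7a11, Trib3 and Vldlr), where 4.51% of all 27025 genes did. Among these 6, Trib3 and Slc7a11 (19.6 CPM untreated and 16.1 CPM on drug) fell by less than 1.5-fold on drug. Slc7a5, Phgdh, Atf5 and Slc6a9, which fell by more, are not among the 6. Of 53 genes lower only on drug with a promoter, 3 held it (5.66%), namely Adig, Got1 and Nupr1. A match is a string of letters, and no binding was measured.

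In the unfolded protein response list more members rose than fell on drug. Of 20 members, 9 rose and 2 fell at an adjusted p under 0.1, where 4.4% of all genes rose and 6.48% fell. By 2-fold or more 1 rose, where 0.723% of all genes did. That gene is Sdf2l1, a partner of the chaperone BiP, with 6.07 CPM untreated, 21.7 CPM on drug and 5.02 CPM after withdrawal (log2 difference 1.97 ± 0.19, adjusted p = 0.0043, edgeR). Calreticulin (Calr) had 810.3, 1349 and 704 CPM, Manf 85.6, 149.7 and 75.1 CPM and BiP (Hspa5) 1579, 2084 and 1562 CPM. The list's median log2 ratio was 0.31 on drug and -0.06 after withdrawal.

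Among the growth factors of the HER2 family, amphiregulin moved most. Areg, an EGFR ligand, had 90.4 CPM untreated, 19.1 CPM on drug and 143 CPM after withdrawal, so the drug culture was lowest and the withdrawn culture highest. Its log2 difference between drug present and absent was -2.60 ± 0.27 (adjusted p = 0.00501, edgeR). Nrg2, a neuregulin, went up, with 5.74, 11.8 and 5.37 CPM (1.09 ± 0.21, adjusted p = 0.0309, edgeR). Betacellulin (Btc) was called lower as well, at 1.79, 0.437 and 2.97 CPM, which rests on few counts. Of 17 tested members of this list, 1 rose and 2 fell, where 0.723% of all genes rose and 1.18% fell.

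Readouts of the pathways below the receptor were mixed. In the list of 19 ERK output genes, log2 ratios on drug ranged from -0.47 to 0.71 over 17 members at 5 CPM or more, 7 of them below 0. The phosphatases Dusp4, with 62.5, 92.6 and 67.6 CPM, and Dusp5, with 167, 120.4 and 212 CPM, went opposite ways. Immediate early genes, which growth factors and stress switch on within minutes, included 9 of 20 that rose and 1, Myc, that fell at an adjusted p under 0.1, where 4.4% of all genes rose and 6.48% fell. Of these, Egr1 and Egr2 were about 2-fold higher on drug than in each drug-free culture. Egr1 had 1050.1, 2064 and 1016 CPM and Egr2 50.1, 111 and 56.0 CPM. Among genes that AKT restrains through FOXO factors, 6 of 19 rose at an adjusted p under 0.1, where 4.4% of all genes did, and 0 by 2-fold. The cell cycle inhibitor Cdkn1b had 43.4, 68.1 and 50.2 CPM, whereas the inhibitor Cdkn2b fell from 47.2 to 21.1 CPM and stood at 45.2 CPM after withdrawal.

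In the list of mitosis genes, log2 ratios on drug ranged from -0.73 to 0.27 among members at 5 CPM or more. Of 26 at 5 CPM or more, 23 were below the untreated level on drug and 24 after withdrawal, with median log2 ratios of -0.35 and -0.18, where 5349 and 5192 of 10071 genes were below. Mki67, a proliferation marker, had 50.7, 42.7 and 36.8 CPM. Myc had 140.5, 94.8 and 155 CPM (log2 difference -0.63 ± 0.11, adjusted p = 0.0234, edgeR) and cyclin D1 (Ccnd1) 844, 639.8 and 813 CPM.

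The milk caseins Csn1s2a and Csn2 were the 2 of 14 tested members of the milk and secretory list that fell, where 1.18% of all genes fell, and Csn2 had 156, 52.8 and 95.6 CPM (log2 difference -1.25 ± 0.25, adjusted p = 0.0358, edgeR). Krt15, a basal keratin, had 96.1, 39.8 and 69.9 CPM, a log2 difference of -1.06 between drug present and absent. The luminal keratin genes Krt8 and Krt18 had 953, 691 and 895 CPM and 992, 665 and 906 CPM, so both were close to the untreated level after withdrawal. The basal keratin Krt14 went the other way on drug without being called, with 6.43, 11.6 and 1.92 CPM. Igfbp5, a secreted binder of insulin-like growth factors, had 9796, 3110.1 and 5699 CPM, a fall of 1.66 on the log2 scale on drug, with the withdrawn culture between the others.

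The lists of hypoxia, glycolysis and cholesterol synthesis genes had medians above 0 on drug and below 0 after withdrawal. The median log2 ratios on drug and after withdrawal were 0.34 and -0.32 over 17 hypoxia genes, 0.29 and -0.34 over 18 glycolysis genes and 0.28 and -0.29 over 23 cholesterol synthesis genes. Every one of the 17 hypoxia genes was below the untreated level after withdrawal, where 5192 of 10071 genes were. Few were 2-fold apart from the untreated culture on drug, where 0.529% of all genes were higher and 1.35% lower. In the hypoxia list 0 were higher and 1 lower, in the glycolysis list 0 and 0, and in the cholesterol list 1 and 0. The log2 difference between drug present and absent was 1.11 for Ankrd37 and -1.06 for Stc2, both of the hypoxia list. Aldoc, the glycolytic aldolase C, had 70.8 CPM untreated, 134 CPM on drug and 33.6 CPM after withdrawal. Pmvk, phosphomevalonate kinase of the mevalonate pathway, had 17.8, 36.4 and 13.2 CPM. The mitophagy gene Bnip3 had 162, 258 and 122 CPM and enolase (Eno1) 738, 1172 and 505 CPM. In MamBo38 the same lists had medians of -0.17, 0.01 and -0.07 on drug. Culture density and medium age at harvest are not in the labels, and their part in these values was not tested.

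**Figure D3:**
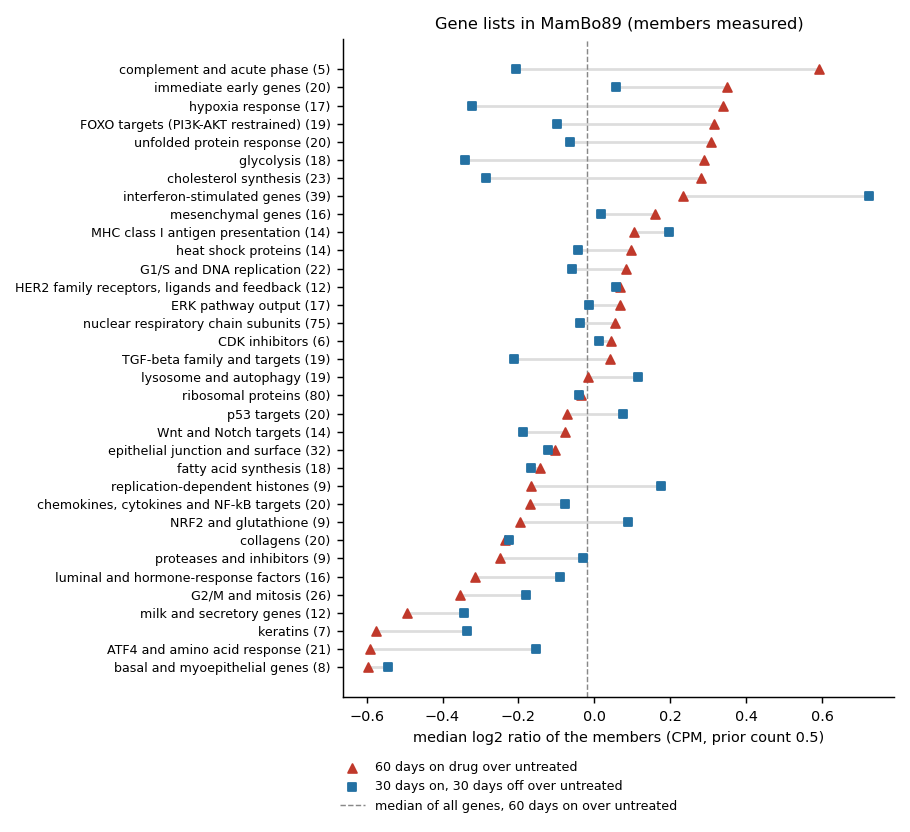
Points give the median log2 ratio to the untreated culture of each gene list's members at 5 CPM or more (number in brackets), on drug (triangles) and after withdrawal (squares), 1 library per schedule. The ATF4 list has -0.59 on drug and -0.15 after withdrawal, the interferon list 0.23 and 0.72, and the glycolysis list 0.29 and -0.34, beside -0.02 for all genes on drug (dashed line).

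In 16 genes that were 2-fold apart on drug, the withdrawn culture lay more than 1.5-fold on the other side of the untreated level. Of these genes, 9 were lower and 7 higher on drug. Areg was among them, and the others named here were picked after their values were seen. Ptgs2, the inducible cyclooxygenase, had 47.4 CPM untreated, 10.6 CPM on drug and 80.2 CPM after withdrawal. Tenm4, a teneurin of the cell surface, had 148, 36.3 and 229.6 CPM, and Slc24a3, a sodium, potassium and calcium exchanger, had 25.5, 3.17 and 46.9 CPM. The efflux pump Abcc4 had 5.38, 0.820 and 11.9 CPM. In the raised direction Wfdc18, a secreted whey acidic protein family member, had 1593, 3188 and 992 CPM. Within MamBo89 alone, with 1 library each, whether the withdrawn culture differed from the untreated one in these genes could not be tested gene by gene. Fits that take their spread from MamBo38, given below with the processing, assume that these libraries vary like that line.

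Only 11 of 10071 genes (0.109%) met the rule for a difference that persists. In it both exposed cultures lay at least 2-fold from the untreated one and within 1.5-fold of each other. The rule took 3 of 9913 genes (0.0303%) in MamBo38 and 1956 of 10674 (18.3%) in MamBo43. Of the 11 genes in MamBo89, 8 were lower (0.0794%) and 3 higher (0.0298%) after exposure. Lgr6, a receptor of the R-spondin family known from stem cells of skin and mammary gland, had 14.1 CPM untreated, 2.79 CPM on drug and 3.91 CPM after withdrawal. Fndc1, a fibronectin type III domain protein, had 143, 58.5 and 53.6 CPM. Cldn7, a claudin of epithelial tight junctions, had 37.0, 12.1 and 15.8 CPM. Ecrg4, a secreted growth-suppressing peptide precursor, had 11.3, 2.79 and 3.15 CPM. The other 4 lower genes, Bspry, Hhipl2, G0s2 and Amt, had 5.10 to 12.2 CPM untreated and 2.04 to 5.42 CPM in the exposed cultures.

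The 3 higher genes were the guanylate-binding protein Gbp9 with 4.18, 9.46 and 9.21 CPM, the interferon-induced Ifit3b with 3.03, 6.67 and 6.94 CPM, and Gm38431 with 2.30, 6.45 and 7.64 CPM. For Ifit3b 35.7% of 75-base windows occur in other genes, mostly Ifit3, and for Gm38431 85.3%, mostly Raver1. None of the 3 reached 10 CPM. A difference of this kind can come from the exposed cultures or from the single untreated library, and these cannot be told apart.

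The test of both exposed libraries against the untreated one called none of 12307 genes, that is 0 (edgeR quasi-likelihood test, smallest adjusted p = 0.287), and 156 genes had a raw p under 0.05. The log2 differences with the smallest p were -1.34 ± 0.22 for Fndc1 and -2.06 ± 0.38 for Lgr6 (adjusted p = 0.287 for both, edgeR). DESeq2 called 0 genes as well. The spread in this test comes from the 60-day and withdrawn cultures, which differ in the 264 genes above.

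Allowing any distance between the exposed cultures gave 20 genes, 17 of them lower. The added genes included matrix and lipid genes whose withdrawn level lay between those of the other cultures. Col11a1, a fibrillar collagen chain, had 87.0 CPM untreated, 22.3 CPM on drug and 38.4 CPM after withdrawal. Thrsp, a regulator of fatty acid synthesis in lactating mammary gland, had 18.7, 2.62 and 6.94 CPM, and Col4a6, a basement membrane collagen chain, 17.1, 4.59 and 8.22 CPM. Gm45837 had 14.1 CPM untreated, no count on drug and 6.53 CPM after withdrawal, and the untreated level was at least 85.7-fold higher than the floor of 3 counts in the 60-day library. Of its 75-base windows 97.4% occur in other genes, mostly Pde2a, and how the reads were shared out between the genes was not tested.

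Only after withdrawal did 9 genes (0.0894%) stand apart, 3 higher (0.0298%) and 6 lower (0.0596%). The same rule took 4 genes (0.0404%) in MamBo38 and 24 (0.225%) in MamBo43. With scaling by total counts the MamBo89 genes were 4 higher and 3 lower. All 3 higher genes are interferon-induced. Ifi44 had 44.7 CPM untreated, 40.1 CPM on drug and 98.7 CPM after withdrawal, a log2 ratio to the untreated culture with a counting interval of 1.03 to 1.26. Rsad2, the antiviral enzyme viperin, had 7.45, 6.56 and 18.2 CPM, and Ifi211 had 1.93, 1.80 and 5.42 CPM, with 63.6% of its 75-base windows in other genes. Among the 6 lower genes were Sparc, a matrix glycoprotein, with 43.3, 61.0 and 19.0 CPM and Syn2, a synaptic vesicle protein, with 15.4, 22.2 and 6.59 CPM. In both of these the drug culture was the highest of the 3.

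**Figure D4:**
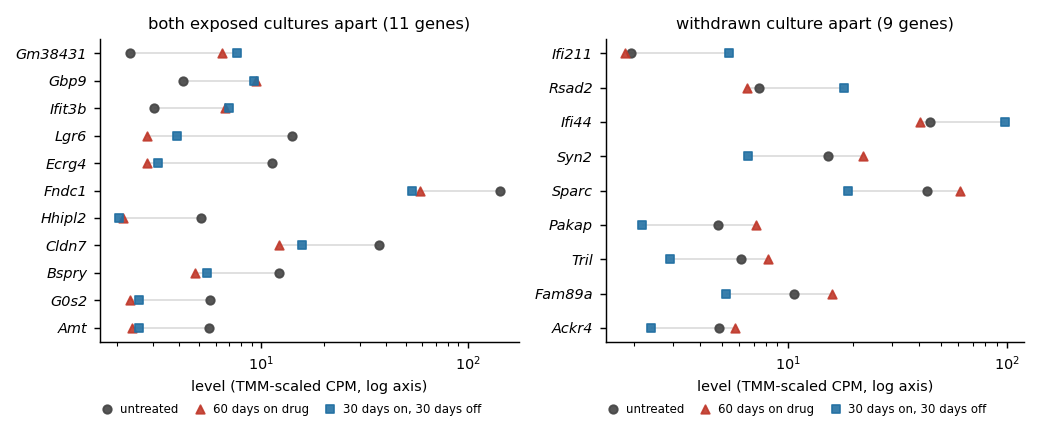
Points give the level (TMM-scaled CPM, log axis) of the 11 genes in which both exposed cultures were apart from the untreated one (left) and of the 9 genes in which the withdrawn culture alone was apart (right), 1 library per schedule. On the left Lgr6 goes from 14.1 CPM to 2.79 and 3.91 CPM, and on the right Ifi44 goes from 44.7 and 40.1 CPM to 98.7 CPM.

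Nearly all interferon-stimulated genes of the list were above the untreated level in the withdrawn culture, though none was called in the tests within MamBo89. Of 39 members at 5 CPM or more, 38 were above the untreated level after withdrawal and 31 on drug, with median log2 ratios of 0.72 and 0.23. Of all 10071 genes, 5192 were below that level after withdrawal and 5349 on drug, with medians of -0.01 and -0.02. After withdrawal 5 members were 2-fold higher (Rsad2, Ifit3, Ifi44, Ifit3b and Ifit1), where 0.171% of all genes were. On drug 1 was 2-fold higher (Ifit3b), where 0.529% of all genes were. Usp18, an interferon-induced protease that removes ISG15, had 87.2 CPM untreated, 83.2 CPM on drug and 167 CPM after withdrawal. Isg15 itself had 64.7, 57.0 and 113 CPM. Irf7, a transcription factor of the interferon response, had 239, 364 and 427 CPM, so it was already above the untreated level on drug.

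No member of the list was called in any of the 3 tests within MamBo89. The test of the withdrawn library against the other 2 called 0 of 12307 genes in edgeR, where 305 had a raw p under 0.05, and 4 in DESeq2. In MamBo38 the median of 21 measured members was 0.01 after withdrawal. Of 16 markers of leukocytes, 12 were at or under the floor of 3 counts in every library. Their summed level over all 16 was 267, 430.1 and 227 CPM, mostly Cd14 at 259, 420.3 and 210.0 CPM. Cd68, a lysosomal protein of macrophages and other cells, had 7.77, 8.37 and 16.7 CPM.

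**Figure D5:**
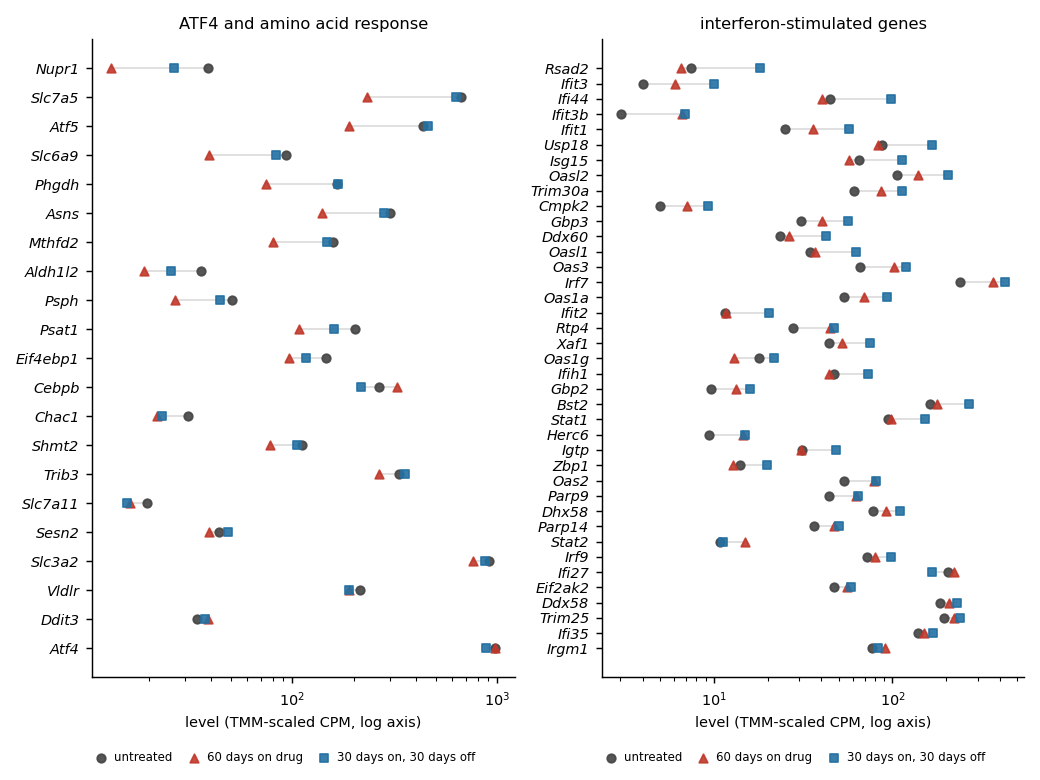
Points give the level (TMM-scaled CPM, log axis) of the ATF4 and amino acid response members (left) and the interferon-stimulated members (right) at 5 CPM or more in any MamBo89 library, 1 library per schedule. On the left Slc7a5 falls from 661 to 231 CPM on drug and is at 628 CPM after withdrawal, and on the right Usp18 is at 87.2, 83.2 and 167 CPM.

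The promoters of an interferon gene that was apart after withdrawal and of one that was apart in both exposed cultures are shown for the interferon response element. The search was for GAAA, any 2 bases and GAAA again, on both strands in the same window, and matches are in capitals.
Rsad2, chr12:26456403-26456702, minus strand: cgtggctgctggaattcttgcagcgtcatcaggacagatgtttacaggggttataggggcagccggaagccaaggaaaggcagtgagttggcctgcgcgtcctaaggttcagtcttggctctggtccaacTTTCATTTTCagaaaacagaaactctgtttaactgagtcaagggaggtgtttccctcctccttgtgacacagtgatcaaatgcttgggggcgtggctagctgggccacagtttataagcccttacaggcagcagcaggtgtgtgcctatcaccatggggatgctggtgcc
Ifit3b, chr19:34607707-34608006, plus strand: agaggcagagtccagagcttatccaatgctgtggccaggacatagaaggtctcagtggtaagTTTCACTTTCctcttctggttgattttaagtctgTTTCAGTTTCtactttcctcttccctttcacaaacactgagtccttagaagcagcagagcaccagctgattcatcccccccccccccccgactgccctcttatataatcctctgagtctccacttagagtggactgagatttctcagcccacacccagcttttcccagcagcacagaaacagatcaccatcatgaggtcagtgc
Of 30 list members at 5 CPM or more with a promoter in the table, 19 held a match, where 3.99% of all 27025 genes did. Of the 53 genes lower and the 18 genes higher only on drug with a promoter, 0 held one. Of the 8 genes lower in both exposed cultures 1 did (12.5%), Cldn7, and of 2 higher in both 1 did, Ifit3b. Of the 3 genes higher only after withdrawal 2 did, Ifi211 and Rsad2, and of the 6 lower ones 0 did.

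The drug-present difference was then set against the same difference in MamBo38, whose cells lack the antibody's target. This comparison was added after the results within MamBo89 were known. MamBo38 also differs in the tumor it goes back to and in the number in its sample names, so the antibody's target, the line and whatever the number marks cannot be told apart. Within MamBo38 the drug-present test called 0 of 13248 genes (378 with a raw p under 0.05, edgeR). The difference between the lines was called for 80 of 13248 genes (0.604%), 18 higher (0.136%) and 62 lower (0.468%) in MamBo89 (edgeR, interaction of line and drug, 2 residual degrees of freedom). Of the 99 genes that moved only with the drug, 45 were among the 80, 8 higher and 37 lower. Because the rule read the MamBo89 part of this difference, the overlap is a description.

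Cyb5r1 had 575, 526 and 596 CPM in untreated, 60-day and withdrawn MamBo38, and its drug difference was lower in MamBo89 by -2.38 ± 0.19 on the log2 scale (adjusted p = 0.00139, edgeR). Slc7a5 had 295, 385 and 337 CPM there, with a difference of -1.76 ± 0.18 (adjusted p = 0.00356, edgeR). Fibronectin had 23539, 24946 and 24547 CPM in MamBo38, with a difference of -2.74 ± 0.34 (adjusted p = 0.00733, edgeR). Sdf2l1 had 14.5, 13.2 and 15.2 CPM there, and its difference was 2.14 ± 0.26 (adjusted p = 0.00645, edgeR). Each of these genes was expressed in MamBo38 and nearly level across its schedules. Of the 99 genes, 59 reached 5 CPM in MamBo38, and 2 of them were 2-fold apart between its 60-day and untreated libraries.

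A fit over both lines, with line and schedule as terms, called 14 of 12906 genes (0.108%) for 60 days on drug against untreated, 2 higher (0.0155%) and 12 lower (0.093%), and 0 for withdrawal against untreated (230 with a raw p under 0.05, edgeR, and 1 called by DESeq2). The smallest p was that of Rgs8, a regulator of G protein signalling, with 57.1, 8.53 and 32.1 CPM in MamBo89 and at most 0.0954 CPM in MamBo38. All 14 genes had at most 1.38 CPM in untreated MamBo38, so these calls rest on MamBo89 and are not a response shown in both lines. They included Csn1s2a, Tnc and B4galnt2, described above, and Chil1 and Ifi27l2a as the higher ones. Ifi27l2a, an interferon-induced gene, had 138, 315 and 195 CPM in MamBo89.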

How the data were processed

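RNA was extracted with Trizol from 11 cultures of MamBo mouse mammary carcinoma lines, of which the AG3 clone and a second untreated MamBo38 library with another number in its name were not used here, and libraries were made with a TruSeq v2 kit, which does not keep the strand. Per the labels, the authors used bcl2fastq, STAR 2.5 and RSEM 1.3.0 with build mm10. The deposited table holds expected counts per gene for 21846 genes, which RSEM estimates by sharing reads among similar transcripts, and no column was left unused. It holds no mitochondrially encoded gene.

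The deposited values were all whole numbers and were tested with edgeR 4.0.16 in R 4.3.3, using filterByExpr (minimum count 10, total 15), TMM scaling and the quasi-likelihood test. Calls needed an adjusted p (Benjamini-Hochberg) below 0.1 together with a change of 2-fold or more, the study's limits. Standard errors come from the log2 fold change over the root of the F statistic. DESeq2 1.42.0, other scalings, filters and thresholds, and leaving out each library were alternatives. With 1 library per schedule, each test within MamBo89 set 2 libraries against 1. The labels do not say that libraries are separate experiments, so p-values measure only the spread between these libraries, which may be technical. The floor is 3 counts, or 0.138 to 0.175 CPM.

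Named genes were up to 10 per rule of size and direction, up to 5 per test and direction with the smallest p, the leading members of each list and a fixed set of markers. Other genes are said to be picked after their values were seen. The members, lists and rules were chosen with earlier results of these data known. Coordinates are from GENCODE M21 (GRCm38) and promoters from RefSeq (GRCm38.p6). The procedures were tested on simulated data.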

Additional observations from a re-analysis of the deposited data

Results flagged for a closer look

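The drug-present difference of 17 named genes differed between MamBo89 and MamBo38 by a tested interaction (edgeR quasi-likelihood test, called at an adjusted p under 0.1). On the log2 scale, MamBo89 minus MamBo38, the genes lower in MamBo89 were Dhrs9 (-3.45), Fn1 (-2.74), Cyb5r1 (-2.38), Loxl4 (-1.95), Map1b (-1.81), Slc7a5 (-1.76), Fam129a (-1.68), Nptx1 (-1.63) and Atf5 (-1.41). The genes higher in MamBo89 were Sdf2l1 (2.14), Axl (1.67), Zfp9 (1.56), Serpina3n (1.49), Nxph4 (1.48), Egr2 (1.22), Hes1 (1.12) and Prelp (1.11). Most of these genes were named because they stood apart in MamBo89, so the direction of the difference was partly fixed by their choice.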

How the results depend on the processing

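No paired analysis was possible because the labels carry no replicate numbers and each schedule has 1 library. Drug present against absent gave 234 calls and 131 with DESeq2, 155 at an adjusted p under 0.05, 7 with a test against the 2-fold limit (glmTreat), and 298 to 453 leaving out a drug-free library (453 without the untreated one, 260 higher and 193 lower), with the spread then taken from MamBo38 and the lone library assumed to vary like it. Exposed against untreated gave 0 calls, 5 with the legacy quasi-likelihood method, 2 with the spread pooled with MamBo38, and 35 (without the 60-day library) to 298 (without the withdrawn one) leaving out an exposed library. Withdrawn against the others gave 0 calls, 4 with DESeq2, and 35 (without the 60-day library) to 453 (without the untreated one) leaving out a library. The fit over both lines gave 14 calls on drug, 8 with DESeq2, 2 with at least 10 counts in every library, 4 at an adjusted p under 0.05, 2 with glmTreat, 0 with MamBo43 added and 0 (without untreated MamBo89) to 357 (without 60-day MamBo38) leaving out a library. After withdrawal it gave 0 calls, 1 each with DESeq2, no filter and robust estimation, and 0 to 31 leaving out a library, with 30 and 31 without the 60-day MamBo89 and MamBo38 libraries. The difference between the lines gave 80 calls, 46 at an adjusted p under 0.05, 1 with glmTreat and 54 to 282 leaving out a drug-free library (282 without untreated MamBo89). The legacy method and the difference between the lines were added after the data were seen.

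For on drug against untreated, withdrawn against untreated and on drug against withdrawn, the 2-fold counts were 475, 206 and 626 at 1 CPM, 87, 8 and 140 at 20 CPM, and 794, 277 and 1178 at 1.5-fold. The rules of drug only, persists and withdrawal only took 214, 48 and 64 genes at 1 CPM, 54, 2 and 3 at 20 CPM, and 527, 60 and 110 at 1.5-fold, and with no limit on the other libraries persists took 20 and withdrawal only 21. On drug over withdrawn the balance turned to 144 higher and 128 lower with total counts, 377 and 249 at 1 CPM and 611 and 567 at 1.5-fold, and the withdrawal-only genes were 4 higher and 3 lower with total counts. With members at 1 CPM the median log2 ratio of the ATF4 list on drug was -0.92, and that of the mesenchymal list -0.014, the keratins -0.25 and the proteases -0.083. After withdrawal it was -0.046 for NRF2 genes, -0.26 for basal genes, 0.095 for complement, 0.22 for efflux pumps and -0.13 for keratins, and for on drug over withdrawn 0.028 for NRF2 genes, -0.48 for milk genes, 0.0045 for proteases and 0.27 for mammary epithelial markers. Of these medians, 6 changed sign: mesenchymal on drug, NRF2 and complement after withdrawal, and NRF2, proteases and mammary epithelial markers for on drug over withdrawn. With total counts the ratios of Epcam and Il6 on drug and of Chil1 and Fut1 after withdrawal also changed sign, and their counting intervals all include 0. The cause of these changes was not tested. Of the ratios of single named genes, 602 stayed within their counting interval and 19 moved past it.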
